A study of Bos taurus with 24 samples.

Results

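A group of 9 genes that mark macrophages and other leukocytes was followed in biopsies of bovine gluteus medius, a muscle of the rump. They are C1QA, C1QB and C1QC, the chains of complement C1q, CD53 and PTPRC, which mark leukocytes in general, and CD68, CD163, CD14 and CSF1R, which mark macrophages and monocytes. Each symbol matched 1 array feature, so the rule of taking the brightest feature per gene left nothing to choose. The 9 genes are among 18444 genes with a feature and 14198 that passed a filter on dim genes, a mean at or above the 25th percentile of all features (6.76 on the log2 scale). All 9 passed it.

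The samples came from crossbred beef cows in a feeding trial of 121 animals, and the study asked how muscle expression relates to weight gain. From the trial the 6 cows that gained most and the 6 that gained least while feed was free were chosen, and each was sampled on 2 occasions. In the protocol's order these were day 105 of 112 days on a restricted diet (120 kcal ME per kg metabolic body weight, ME being metabolizable energy), and day 49 of 112 days with free access to feed. The titles call the biopsies 1 and 2 but do not say which feeding period each belongs to, so biopsy 1 is taken as restriction. The 4 groups of 6 arrays are therefore high gain cows under restriction (biopsy 1), high gain cows with free feed (biopsy 2), and low gain cows under restriction and with free feed. Every cow passed through restriction before free feeding, so order and diet cannot be told apart. Age is not given in the labels used here.

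C1q is the recognition part of the classical complement pathway. It is assembled from the A, B and C chains, it binds antibody complexes and dying cells, and in mice and humans tissue macrophages make most of it. PTPRC, also called CD45, is a phosphatase on the surface of nucleated blood-derived cells, and CD53 is a tetraspanin of the leukocyte membrane. CSF1R is the receptor that keeps macrophages alive through its ligands CSF1 and IL34, CD14 presents bacterial lipopolysaccharide to the receptor TLR4, CD163 takes up haemoglobin bound to haptoglobin, and CD68 is a glycoprotein of macrophage lysosomes. In skeletal muscle such cells lie between the fibres and in the connective tissue, fat and vessels around them. Because whole biopsies were measured, fewer cells of a type and less RNA per cell cannot be told apart in any value below.

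The arrays fell into 2 sets that appeared to have been normalized separately. Values ended at 19.81 in the biopsy 1 set and at 19.93 in the biopsy 2 set, with array medians of 7.68 to 7.88 and 7.79 to 7.85. The biopsy and the set in which an array was processed cannot be told apart, and changes between biopsies were computed after quantile normalization over all 24 arrays. Comparisons of gain classes lie within a set. Odorant receptor genes, not chosen for any role in muscle, were set beside the 9 genes. The 99th percentile of the absolute change between biopsies was 0.99 on the log2 scale for the 272 tested ones. For all 806 with a feature it was 1.03. The cause of these changes was not tested. C1QA, with the largest change of the 9 at 1.04, lay just past both values, and the other genes lay under both. As C1QA passed the filter on dim genes only through biopsy 2, its place there is a description. The biopsy 1 array of low gain cow 4 stood apart, with skeletal muscle fibre markers at a mean of 15.4 against 19.4 to 19.6 on the other 11 arrays of its set and adipocyte markers at 14.2. The biopsy 2 array of high gain cow 4 had adipocyte markers at a mean of 16.1, the highest of the 24 arrays. Muscle fibre markers were otherwise near the upper limit, as the labelled tissue requires, whereas none of the 9 genes reached it on any array.

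Between biopsies the 9 genes did not move as a block. C1QA, C1QC, CD14 and CSF1R rose, CD53, PTPRC and CD163 fell, and C1QB and CD68 did not pass the test. The count of 7 of 9 includes C1QA and stands beside 38.1% of all 14198 tested genes, by limma at an adjusted p under 0.05. C1QA passed the filter on dim genes only through biopsy 2, where it is high, so its call here and within the classes is given as a description and supports no count. By direction, 4 of 9 rose, C1QA among them, where 20.8% of all tested genes did, and 3 of 9 fell where 17.4% did. With C1QA in it, neither the count of 7 nor that of 4 supports an excess over these shares. The median change was -0.06 over the 9 genes and 0.02 over all tested genes. Calls among the 9 were the same with the values as deposited, which moved the median of all tested genes to 0.12 and the upward share of all calls from 54.5% to 70.8%. When cow 4 of both classes was left out, 6 of the 9 passed, C1QA again among them, 3 in each direction, since CD14 was lost. In that setting 6029 of all 14198 tested genes were called, against 5414 with all cows, so this count supports no excess either.

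**Figure D1:**
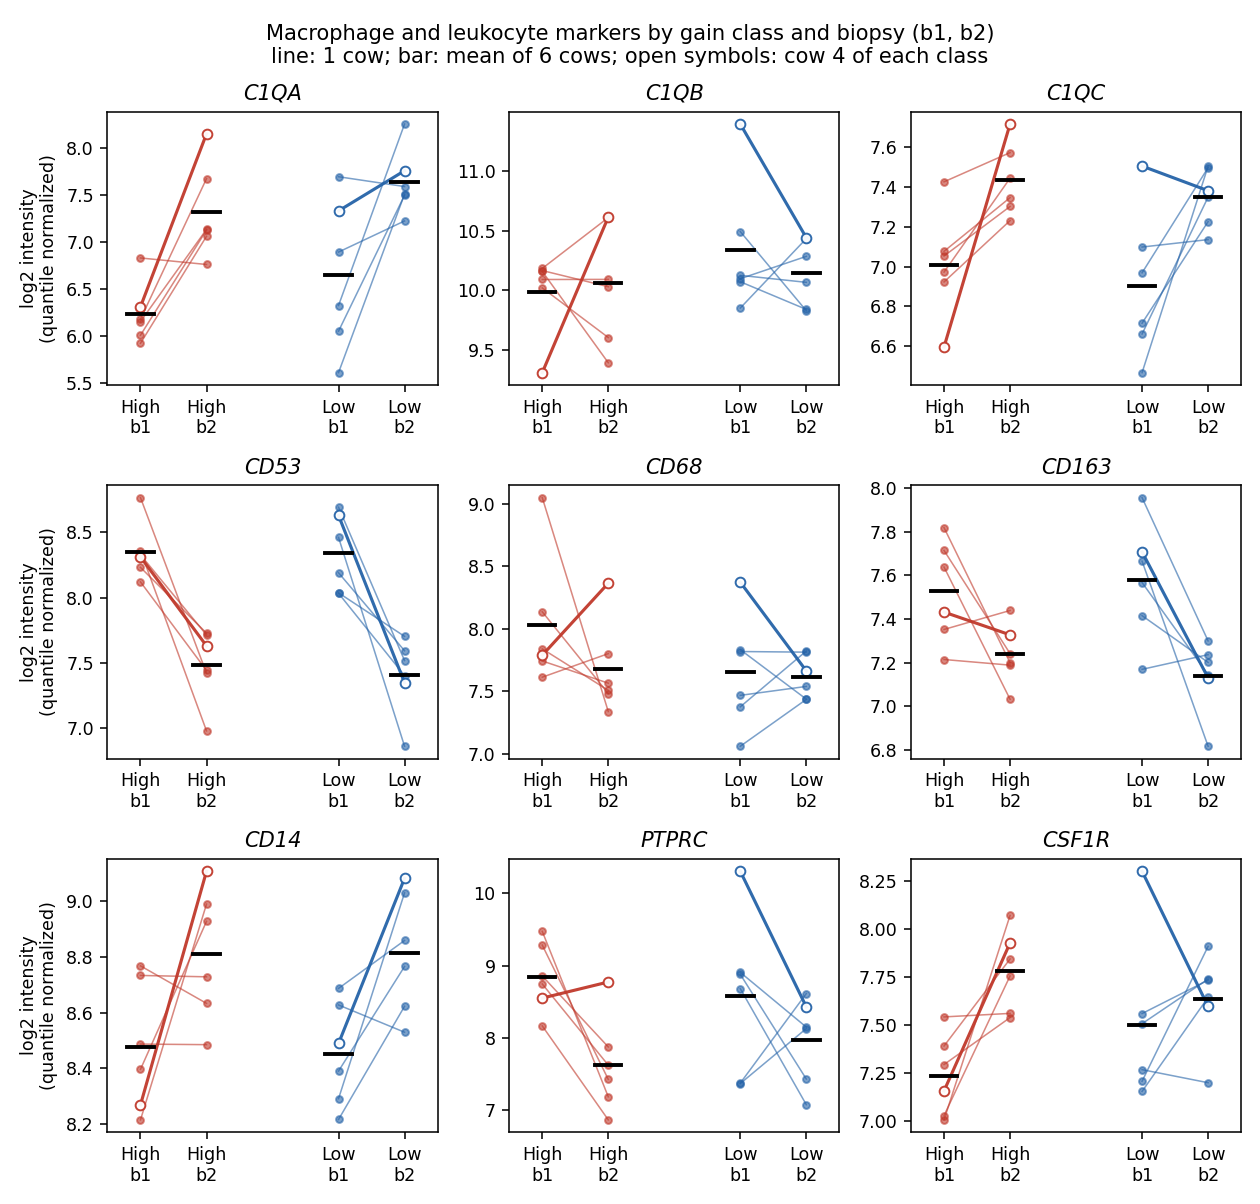
Quantile-normalized log2 intensity (vertical axis) of the 9 genes on each of the 24 arrays, by gain class and biopsy. A line joins the arrays of 1 cow, black bars are means of 6 cows, and open symbols mark cow 4 of each class. All 12 lines fall for CD53, whereas the lines for C1QB and CD68 cross.

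Of the C1q chains C1QA and C1QC passed the test and C1QB did not. In quantile-normalized log2 values, used for all changes between biopsies, C1QA read 5.61 to 7.69 at biopsy 1 (lowest to highest of 12 arrays, median 6.24) and 6.76 to 8.25 at biopsy 2 (median 7.50). The ranges overlapped, and 10 of 12 cows were higher at biopsy 2. High gain cows averaged 6.23 ± 0.32 at biopsy 1 (SD, n = 6) and 7.32 ± 0.50 at biopsy 2, and low gain cows 6.65 ± 0.79 and 7.64 ± 0.35. The change of C1QA was 1.04 ± 0.20 on the log2 scale (SE, n = 12 cows), with a limma adjusted p of 0.00123. C1QA is dim, however: as deposited, 9 of 12 biopsy 1 arrays and none of biopsy 2 lay under 6.76. It would not have been tested on its biopsy 1 level, and the size of its change is read against values near the floor.

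C1QC read 6.47 to 7.50 at biopsy 1 (median 6.97) and 7.14 to 7.72 at biopsy 2 (median 7.37). It was higher in 11 of 12 cows, and 4 biopsy 1 arrays lay under 6.76. The rise was 0.44 ± 0.11, with a limma adjusted p of 0.00584. C1QB read 9.31 to 11.39 at biopsy 1 (median 10.11) and 9.39 to 10.61 at biopsy 2 (median 10.08). Its change was -0.06 ± 0.18, with a 95% interval of -0.44 to 0.32, and 5 cows were higher and 7 lower. Within cows the change of C1QA exceeded that of C1QB in 11 of 12, and the change of C1QC exceeded that of C1QB in 9 of 12, a description with no test. In the bovine assembly ARS-UCD2.0 these genes are neighbours, in the order C1QB, an unnamed gene, C1QC and C1QA.

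CD53 had the smallest p of the 9. It read 8.03 to 8.77 at biopsy 1 (median 8.32) and 6.86 to 7.73 at biopsy 2 (median 7.48). No biopsy 2 array reached the lowest biopsy 1 array, a separation seen in 2.97% of all tested genes (and within classes, where CD53 also separated, in 11.2% for high and 9.02% for low gain cows), and all 12 cows were lower. A change in the same direction in all 12 cows was seen in 12.4% of tested genes. CD53 fell by 0.90 ± 0.12, 1.87-fold, with a 95% interval of -1.16 to -0.64 and a limma adjusted p of 0.000102. The cow with the smallest fall was at -0.33 and the cow with the largest at -1.60.

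PTPRC varied more from cow to cow. High gain cows read 8.17 to 9.47 at biopsy 1 (median 8.80) and 6.87 to 8.77 at biopsy 2 (median 7.52), and low gain cows 7.37 to 10.31 (median 8.78) and 7.08 to 8.61 (median 8.14). Groups overlapped in both classes. PTPRC fell by 0.92 ± 0.28 over the 12 cows (limma adjusted p = 0.0201), with 9 cows lower. Changes ran from -2.29 in high gain cow 2 to 1.24 in low gain cow 2, so the size of the fall was like that of CD53 but its SE was larger.

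Of the macrophage receptors, CD163 read 7.17 to 7.96 at biopsy 1 (median 7.60) and 6.82 to 7.44 at biopsy 2 (median 7.20). It was lower in 10 of 12 cows, though the ranges overlapped. The fall was 0.37 on the log2 scale, with the change at -0.37 ± 0.09 and a limma adjusted p of 0.00656. CD14 went the other way, from 8.21 to 8.77 (median 8.44) at biopsy 1 to 8.48 to 9.11 (median 8.81) at biopsy 2. It was higher in 8 of 12 cows, and its rise was 0.35 ± 0.11 (limma adjusted p = 0.0209). Leaving out cow 4 of both classes put CD14 at 0.28 with a limma adjusted p of 0.0583. CD163 and CD14 together, one lower and the other higher, were seen in 6 of 12 cows.

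CSF1R read 7.01 to 8.30 at biopsy 1 (median 7.28) and 7.20 to 8.07 at biopsy 2 (median 7.74). It was higher in 10 of 12 cows, and the exceptions were low gain cows 4 (-0.70) and 5 (-0.07). Its rise was 0.34 ± 0.12, with a limma adjusted p of 0.0355, the weakest call of the 7. The call did not survive the removal of any 1 of 8 cows, high gain cows 2, 4, 5 and 6 and low gain cows 1, 2, 3 and 6, with adjusted p of 0.0514 to 0.0788 and changes of 0.29 to 0.35. CD68 read 7.06 to 9.05 at biopsy 1 (median 7.80) and 7.34 to 8.36 at biopsy 2 (median 7.55), with a change of -0.19 ± 0.17 and a 95% interval of -0.55 to 0.16. High gain cow 2 had its highest biopsy 1 value and the largest drop, -1.71.

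**Figure D2:**
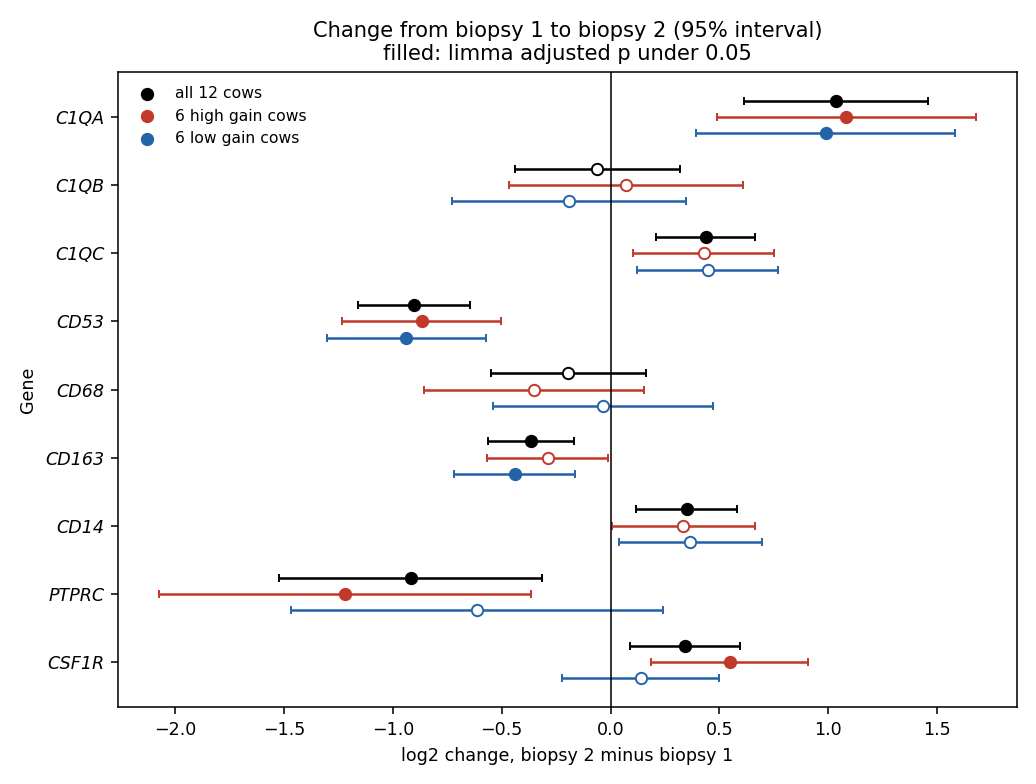
Change from biopsy 1 to biopsy 2 on the log2 scale (horizontal axis) for each gene, with 95% intervals, in all 12 cows (black), 6 high gain cows (red) and 6 low gain cows (blue). Filled symbols had a limma adjusted p under 0.05. C1QA and CD53 are filled in all 3 rows, on opposite sides of 0, C1QA having passed the filter on dim genes only through biopsy 2.

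Within high gain cows C1QA rose by 1.08 ± 0.28 (SE, n = 6 cows) and CSF1R by 0.55 ± 0.17, and CD53 fell by 0.87 ± 0.17 and PTPRC by 1.22 ± 0.40. These 4 of 9, with C1QA only as a description, stand beside 20.3% of all tested genes (11.5% upward and 8.73% downward). The limma adjusted p values were 0.0158, 0.0348, 0.00407 and 0.0446. C1QC was at 0.43 ± 0.15, outside the threshold (adjusted p 0.0604) though higher in all 6 cows, and was called with the values as deposited, with no cow block, and without low gain cow 4 or 6 (adjusted p 0.0288 to 0.0467). CD14 was at 0.33 ± 0.15 (limma adjusted p 0.138), and was called with the values as deposited (0.0446). CSF1R was higher in all 6 high gain cows and PTPRC lower in 5, with high gain cow 4 at 0.22. PTPRC was no longer called when any of 7 cows was left out, the highest adjusted p being 0.135 without high gain cow 2, nor with the values as deposited (-1.12, adjusted p 0.0546). CSF1R lost its call without any of high gain cows 1, 2, 4, 5 and 6 (adjusted p up to 0.113), and C1QA without high gain cow 2 (1.00, adjusted p 0.0518).

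Within low gain cows C1QA rose by 0.99 ± 0.28, CD53 fell by 0.94 ± 0.17 and CD163 fell by 0.44 ± 0.13, with limma adjusted p of 0.0244, 0.00256 and 0.0283, and again 20.3% of all tested genes passed (10.8% upward and 9.46% downward). C1QC was at 0.45 ± 0.15, just outside the threshold (adjusted p 0.0514). It was called with the values as deposited, with no cow block and with no filter on dim genes (limma adjusted p 0.0287 to 0.0434). It was also called without low gain cow 4 (0.56, adjusted p 0.0223), without low gain cow 1 (0.53), in the absence of high gain cow 4, and without cow 4 of both classes. In that last setting CD163 was not called (-0.41, adjusted p 0.0581). C1QA lost its call without low gain cow 2 (0.80), cow 3 (0.81) or cow 6 (0.90), and CD163 without low gain cow 1, 4, 5 or 6 (adjusted p up to 0.0951). PTPRC was at -0.61 ± 0.40 and CSF1R at 0.14 ± 0.17 in this class. CD14 was at 0.37 ± 0.15 (limma adjusted p 0.107), and was called with the values as deposited (0.0399) and with no cow block (0.0497). Both classes share the fit and the estimate of spread, so a cow of one class can decide a call in the other.

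The difference of the changes between classes was tested as an interaction, in which a shift common to a processing set cancels. None of the 9 genes passed, nor did any of the 14198 tested genes (0% called, with 512 at an unadjusted limma p under 0.05). The largest estimates were those of PTPRC, whose change was -0.61 ± 0.56 in high relative to low gain cows (95% interval -1.82 to 0.60), and CSF1R at 0.41 ± 0.24 (-0.10 to 0.92). For CD53 the difference was 0.07, with an interval of -0.45 to 0.59, and for C1QA 0.10, with an interval of -0.75 to 0.94. Leaving out cow 4 of both classes put PTPRC at -1.15 and CSF1R at 0.20, with limma adjusted p of 0.505 and 0.759.

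High and low gain cows were then compared within each biopsy, 6 against 6, on the values as deposited. No gene of the 9 and none of all tested genes passed at biopsy 1, at biopsy 2 or over the mean of both (0% called by limma, against 716, 334 and 526 genes at an unadjusted p under 0.05). The groups overlapped for all 9 genes at both biopsies, where 0.331% and 0.0704% of tested genes did not. C1QA was the gene with the smallest unadjusted p over both biopsies. Its mean was 6.20 ± 0.30 in high and 6.67 ± 0.78 in low gain cows at biopsy 1 (SD, n = 6), and 7.36 ± 0.52 against 7.68 ± 0.37 at biopsy 2. The difference over both biopsies was -0.40 ± 0.18, with an unadjusted limma p of 0.0469, an adjusted p of 0.999 and a 95% interval of -0.80 to -0.01. C1QB differed by -0.18 (-0.51 to 0.15) and C1QC by 0.06 (-0.15 to 0.28).

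The other genes gave intervals around 0 of unequal width. CD14 differed between classes by 0.00 over both biopsies, with an interval of -0.19 to 0.19, CD163 by -0.0028 (-0.18 to 0.17) and CD53 by 0.03 (-0.18 to 0.25). PTPRC was far less settled, at 0.25 (-0.64 to 1.15) at biopsy 1, -0.35 (-1.07 to 0.38) at biopsy 2 and -0.05 (-0.59 to 0.49) over both. CD68 was at 0.19 (-0.10 to 0.48) and CSF1R at -0.09 (-0.33 to 0.15) over both biopsies.

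**Figure D3:**
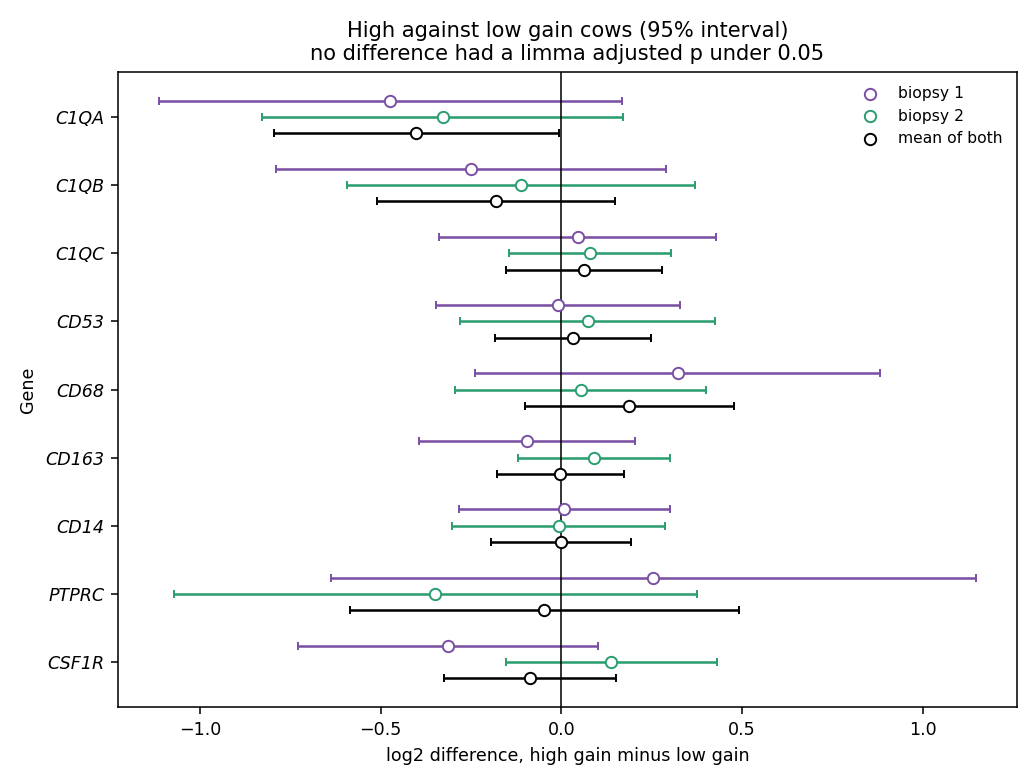
Difference between gain classes, high minus low, on the log2 scale (horizontal axis) with 95% intervals for each gene at biopsy 1 (purple), at biopsy 2 (green) and over the mean of both (black), 6 cows against 6. All symbols are open because no difference had a limma adjusted p under 0.05, and PTPRC and C1QA have the widest intervals.

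Within a group the 9 genes varied together to a degree that rested on the arrays that stood apart. The biopsy 1 array of low gain cow 4 was the highest of its 12, in values as deposited, for 5 of the 9 genes (C1QB 11.12, C1QC 7.61, CD53 8.71, PTPRC 10.15 and CSF1R 8.40), and among the highest 3 for 8 of 9. On that array 29.1% of all tested genes were also the highest of the set. The biopsy 2 array of high gain cow 4 was the highest of its set for C1QB, C1QC, CD68, CD14 and PTPRC, and 18.7% of all tested genes were highest there. At biopsy 2 high gain cow 5, whose array did not stand apart, was the highest for CD53, CD163 and CSF1R, and for 9.95% of all tested genes. The part of fat or connective tissue in these values was not tested.

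Deviations from the 4 group means were correlated over the 24 arrays, 2 from each cow, as a description. C1QB and C1QC had an r of 0.73 and C1QA and C1QB 0.55, and CD68 and PTPRC had 0.76, the highest of the 36 pairs. CD53 followed PTPRC (0.63) and CD68 (0.57) but not CD14 (-0.18) or CD163 (-0.07). Over the 20 arrays without cow 4 of both classes these values were 0.42, 0.44, 0.58, 0.61, 0.51, -0.37 and -0.20. Pairs between the pan-leukocyte genes with CD68 thus kept an r above 0.5, and those among C1q chains were at 0.31 to 0.44.

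The same pairs were examined within each biopsy over 12 cows, as deviations from class means, with permutation within class (100000 resamples, two-sided) and Benjamini-Hochberg adjustment over the 72 correlations. Only CD68 with PTPRC at biopsy 1 passed: Pearson's r was 0.80 (permutation p = 0.00056, adjusted 0.0403) and Spearman's rho 0.76 (permutation p = 0.00909, adjusted 0.178). Its r was 0.72 without the 2 arrays farthest from the CD68 median and 0.71 without low gain cow 4. At biopsy 2 this pair had an r of 0.70 (permutation p = 0.0242, adjusted 0.194) and a rho of 0.59 (permutation p = 0.0483, adjusted 0.267). There its r fell to 0.25 without the 2 farthest arrays and to 0.44 without high gain cow 4. C1QB with C1QC had an r of 0.76 at biopsy 1 (permutation p = 0.0133, rho 0.69 with p = 0.03) and 0.77 at biopsy 2 (permutation p = 0.011, rho 0.83 with p = 0.00456), with an adjusted p of 0.16 for r at both. Without the 2 arrays farthest from the C1QB median these were 0.41 and 0.59. The median r of the 36 pairs was 0.50 at biopsy 1 and 0.47 at biopsy 2, and 0.25 and 0.31 without the array that stood apart in each set.

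**Figure D4:**
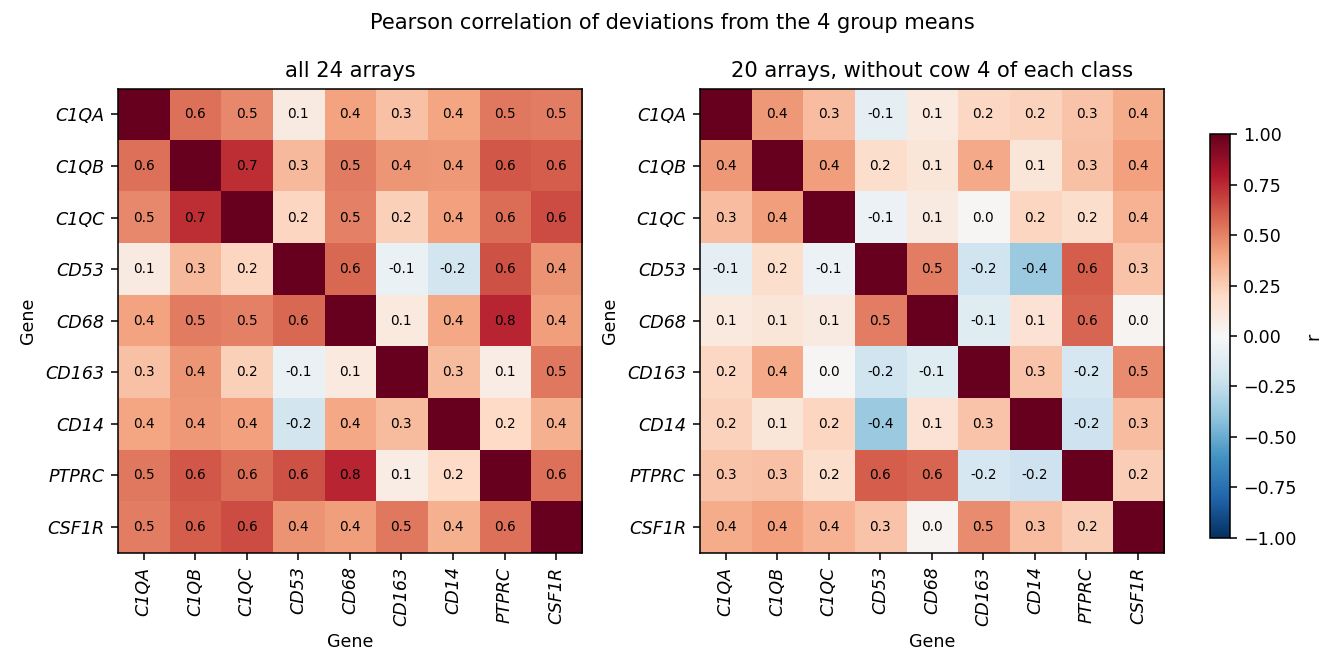
Pearson correlation (colour and number) between the genes in deviations from the 4 group means, over all 24 arrays (left) and over 20 arrays without cow 4 of each class (right). Most pairs lose colour on the right, and the CD53, CD68 and PTPRC pairs remain above 0.5.

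The genes whose deviations were most like those of each marker, over 24 arrays and as a description, were named by a fixed rule of the 3 highest r. For PTPRC they were CD48, an adhesion receptor of leukocytes (0.87), CNN2 (0.87) and CLEC2D (0.86), and for CD53 KHDRBS3, NCKAP1L, a blood cell actin regulator, and NAIP (0.76 to 0.77). For CD68 they were ASAP1, ANPEP and PREX1 (0.87 each), and for CSF1R DSE, MLKL and COL6A6 (0.86 to 0.87). C1QA was most like ARPC3 (0.79), ANGPTL2 and PDIA3 (0.77 each), C1QB like PLA2G4A (0.83), TRAFD1 and IL13RA1, and C1QC like ARPC1B (0.85), ATAD2 and TPST2. For CD163 they were DDX10 (0.77), CMKLR2 and OR2T62, and for CD14 IFI30 (0.73), ZNF207 and DPYSL2. Over the 20 arrays without cow 4 of both classes ARPC3 was again the most similar gene to C1QA (0.85) and DDX10 to CD163 (0.79), while ATAD2 came to lead for C1QC (0.80) and NAIP for CD53 (0.79). For the other 5 markers none of the named genes had the highest r in those arrays, and that of TRAFD1 with C1QB was 0.57.

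Genes that work with these markers were taken from lists and read against the same 38.1%. All list counts without cow 4 of both classes, here and below, stand instead beside the 6029 of 14198 genes called in that setting. Of 17 tested genes of C1q and complement none rose and 4 fell: the anaphylatoxin receptor C5AR1 (-0.45 ± 0.11), the C1q-binding chaperone CALR (-0.88 ± 0.22), the complement inhibitor CD59 (-0.55 ± 0.15) and C3 (-0.23 ± 0.08). C1R and C1S, the proteases that C1q activates, were at -0.23 ± 0.39 and -0.11 ± 0.40 and are named after their values were seen. In the absence of cow 4 of both classes none rose and 5 fell.

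Of the 12 tested genes of the macrophage growth factor and chemokine list none rose and 3 fell. IL34, a ligand of CSF1R, fell by 0.72 ± 0.06 (limma adjusted p = 6.43e-06), from 7.79 ± 0.14 to 7.18 ± 0.12 in high gain cows and from 7.95 ± 0.18 to 7.11 ± 0.14 in low gain cows (SD, n = 6). The other ligand, CSF1, chosen after its values were seen, was at 0.13 ± 0.35. CXCR4, a chemokine receptor (-0.34 ± 0.10), and the granulocyte growth factor receptor CSF3R (-0.58 ± 0.22) were the other genes that fell. In the absence of cow 4 of both classes 2 rose and 3 fell.

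In the CD14 and Toll-like receptor list 3 of 17 rose and 3 fell, close to the share over all genes. Of these 6 called genes 3 had a mean under the dim limit at 1 biopsy and passed the filter through the other, so these counts support nothing. Among them were the nucleic acid sensor TLR7 (-0.88 ± 0.08, from a mean of 7.47 to 6.59) and TLR4 (-0.61 ± 0.20, from 7.34 to 6.73), which receives lipopolysaccharide from CD14 and is named after its values were seen. The adaptor TICAM2 fell by 0.64 ± 0.10 and the kinase IRAK1 rose by 0.76 ± 0.09, both above the limit at both biopsies. Of 13 tested scavenger and resident macrophage receptors 2 rose and 3 fell, with the lectin CD209 at -0.62 ± 0.14, the receptor for dying cells MERTK at -0.48 ± 0.12 and TIMD4, another such receptor, at 0.21 ± 0.07. After removal of cow 4 of both classes these counts up and down were the same, 3 and 3 and 2 and 3.

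Lysosome and phagosome genes, the company of CD68, had 7 of 16 up and 2 down (8 and 2 without cow 4 of both classes), with a median change of 0.29 against 0.02 over all tested genes. The smallest p values were in NCF4, an oxidase subunit (0.30 ± 0.07), the lysosomal membrane protein LAMP2 (0.53 ± 0.13) and the protease CTSL (0.34 ± 0.10). The 2 that fell, named after their values were seen, were LYZ and CYBB. LYZ went from a mean of 9.43 to 8.67 and CYBB from 7.68 to 7.35. Muscle fibres also have lysosomes, and LAMP2 averaged 13.4 to 14.1 in the 4 groups. In the pan-leukocyte list 1 of 22 rose, WAS (0.63 ± 0.09), and 4 fell, FYB1 (-0.56 ± 0.12) and LCP1 (-0.76 ± 0.20) with the smallest p, all 3 of them signalling or actin proteins of blood cells. Without cow 4 of both classes 1 rose and 5 fell. Class II antigen presentation and dendritic cell genes had 2 of 11 up and 3 down (4 and 4 without those cows), led by BATF3 (-0.50 ± 0.09), BOLA-DMA (0.30 ± 0.08) and CD83 (-0.28 ± 0.08), the last with a biopsy 2 mean of 6.64, under the dim limit.

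**Figure D5:**
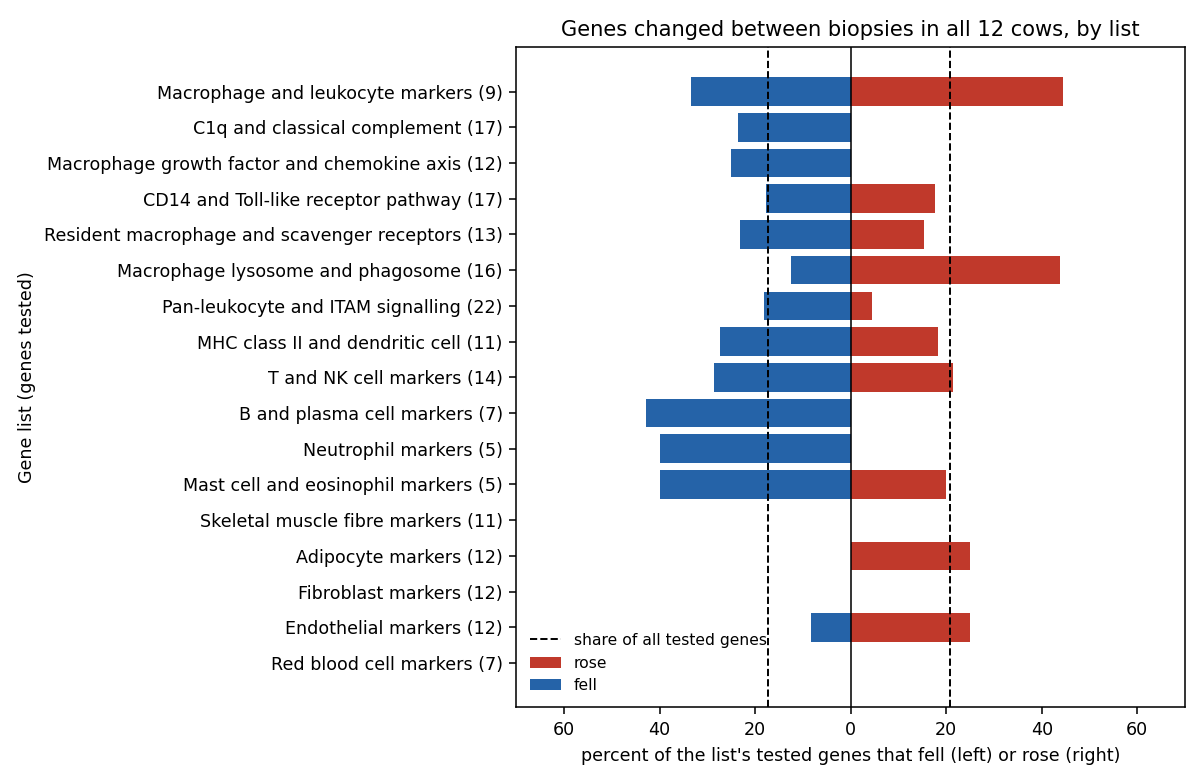
Percent of each list's tested genes (number in brackets) that fell (blue, left) or rose (red, right) between biopsies over the 12 cows (limma, adjusted p under 0.05). Dashed lines mark the shares of all tested genes, 17.4% down and 20.8% up. Bars that count genes which passed the dim-gene filter through 1 biopsy only support no comparison with these lines. They are those of the 9 markers (through C1QA) and of the Toll-like receptor, dendritic cell, T and NK cell, neutrophil and endothelial lists. The lysosome and adipocyte lists, with no such gene, extend past the line on the right. No gene rose in the B and plasma cell, complement, growth factor, neutrophil, muscle fibre, fibroblast or red blood cell lists.

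Of the markers of other leukocytes, those of B and plasma cells passed the test at 42.9%, near the 38.1% of all tested genes. Those of mast cells and eosinophils, with only 5 tested genes, passed at 60%. The shares were 50% for T and NK cells and 40% for neutrophils. Both of these hold genes that passed the dim-gene filter through 1 biopsy, given below, so they support no comparison. Of 7 tested B and plasma cell markers none rose and 3 fell: JCHAIN, the joining chain of secreted antibody (-1.15 ± 0.19), BANK1 (-0.66 ± 0.15) and the B cell antigen MS4A1 (-0.42 ± 0.12). T and NK cell markers had 3 of 14 up and 4 down, with CD27 (-0.72 ± 0.09), CD6 (-0.64 ± 0.09) and the kinase LCK (0.45 ± 0.09). Of the 7 called 2 had passed the dim-gene filter through 1 biopsy, CD6 with a biopsy 2 mean of 6.74 and CD8A, named for this reason, with a biopsy 1 mean of 6.75. Of 5 neutrophil markers none rose and both that were called, MPO (-0.59 ± 0.08) and CATHL1 (-0.71 ± 0.14), passed the filter only through biopsy 1, with biopsy 2 means of 6.73 and 6.51. Of 5 mast cell and eosinophil markers 1 rose and 2 fell, MS4A2 (-0.35 ± 0.06), HDC (-0.42 ± 0.10) and CPA3 (0.33 ± 0.12). Without cow 4 of both classes the counts were 0 and 3 for B, 3 and 4 for T and NK, 0 and 3 for neutrophil and 1 and 2 for mast cell markers. Their part in the falls of CD53 and PTPRC was not tested.

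Among tissue cells, none of 12 fibroblast or 7 red blood cell markers passed between biopsies. In 12 adipocyte markers 3 rose and none fell. These 25% stand beside 38.1% of all tested genes called in either direction and 20.8% called upward. The 3 were AQP7 (1.97 ± 0.39), PNPLA2 (1.32 ± 0.32) and LPL (1.25 ± 0.43), each a larger change than that of any of the 9 genes. The median change of the list was 0.48, against 0.02 over all tested genes, with 8 of the 12 above 0. In 12 endothelial markers 3 rose and 1 fell (33.3% called). Of these 4 called endothelial genes 1, ROBO4, named for this reason, passed the dim-gene filter only through biopsy 2. Its biopsy 1 mean was 6.75, so the endothelial share supports no comparison. None of 11 muscle fibre markers passed, but 9 of them were at the upper limit of the arrays on at least 12 of the 24, so a change could not have been seen there. Without cow 4 of both classes 1 muscle fibre marker fell, 1 fibroblast marker rose, adipocyte markers were at 3 and 0, endothelial at 4 and 2, and red blood cell at 0 and 0. Over arrays the mean level of adipocyte markers ran from 10.1 to 12.3 in high gain cows at biopsy 1, 10.2 to 16.1 at biopsy 2, 10.2 to 14.2 in low gain cows at biopsy 1 and 10.8 to 13.9 at biopsy 2. Fibroblast markers ran from 8.43 to 11.2, 9.34 to 11.8, 8.57 to 12.3 and 9.17 to 10.8 in the same order. The mean of the 9 leukocyte genes ran from 7.71 to 8.22, 7.72 to 8.47, 7.59 to 8.70 and 7.71 to 8.24. Over the 24 arrays the median r of each marker with the 12 adipocyte genes was 0.30 to 0.60, and 0.03 to 0.41 without cow 4 of both classes. With the 12 fibroblast genes it was 0.17 to 0.67, and -0.05 to 0.55 without those cows. The 12 endothelial genes gave a like range, 0.30 to 0.64, and 0.04 to 0.47 without those cows. With the 11 muscle fibre genes it was -0.72 to -0.22, and -0.18 to 0.14 without those cows. The part of these cells in the results was not tested.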

How the data were processed

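Total RNA (250 ng) from 24 biopsies was labelled and hybridised to Affymetrix arrays, 1 per biopsy, per the labels' protocols. The authors deposited 1 table of log2 values. The submitters' processing notes name Affymetrix Expression Console and Transcriptome Analysis Console. Their versions, the normalization method and the log base are not stated, and log2 is taken from the range. Of 26773 features 18790 carry 1 gene in the platform annotation, 385 several and 7598 none.

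The linear models of limma (version 3.58.1, under R 4.3.3, with lmFit and trended eBayes) were fitted over 14198 genes with Benjamini-Hochberg adjustment at 0.05. Changes between biopsies used quantile normalization over 24 arrays and each cow as a fixed block, since the titles give an animal number that both of its biopsies share. A cow's 2 arrays had a correlation of deviations of -0.21 to 0.35, median 0.16, against 0.03 for different cows. Gain classes were compared on deposited values. Intervals are limma's moderated 95% intervals. The number of arrays limits the precision. On simulated data 200 of 14198 genes were given a change of 0.5, 1 or 2 on the log2 scale, with noise drawn independently for each gene. A change of 1 was recovered for 91% of the genes given it between biopsies in all cows, 49.3% in the interaction and 77.6% for gain over both biopsies. In the measured data 38.1% of genes were called between biopsies and single arrays stood apart, so these rates need not hold for the comparisons above.

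The markers, lists, tests, alternatives and naming rule (the 9 markers, the 3 called genes with the smallest p per list, the 3 most similar genes per marker) were chosen with earlier results of these data known. Alternatives were deposited values, median centring, no block, no dim-gene filter, averaged features, robust moderation, and leaving out each cow or cow 4 of both classes. Promoter and protein sequences were not used here.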

Additional observations from a re-analysis of the deposited data

Results flagged for a closer look

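Each of the 9 genes was examined in the 4 groups of 6 arrays for a value far from the other 5, by Dixon's test at the 95% level on the values as deposited. Of the 36 groups 3 held such a value, where chance gives about 1 in 20. C1QB read 9.25 in high gain cow 4 at biopsy 1, and the next lowest of its group read 9.98. CD68 read 8.97 in high gain cow 2 at biopsy 1, above 8.08 in the next cow. CSF1R read 8.40 in low gain cow 4 at biopsy 1, above 7.57, on the array with little muscle fibre signal.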

How the results depend on the processing

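Among all cows CD53, C1QA, C1QC, CD163 and PTPRC kept their calls under every alternative run, whereas CD14 and CSF1R did not, as given above. Fewer cows were tested where one was left out; for other lost calls the cause was not tested. The titles' animal numbers pair the biopsies of a cow; with no replicate block 5471 genes were called in all cows, 3113 in high gain and 3121 in low gain cows. With no replicate block and with the values as deposited 5 of the 9 genes were called in low gain cows, beside 3121 and 3161 of all tested genes. With no filter on dim genes 4425 genes were called in high gain and 4537 in low gain cows. Leaving out single cows gave 1748 to 3981 genes and 1 to 5 of the 9 in high gain cows. In low gain cows it gave 1955 to 2930 genes and 1 to 4 of the 9. These counts of the 9 include C1QA wherever it was called, so they support no excess over the gene counts.

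Estimates that changed sign were small or had wide intervals, and none was called. With the values as deposited these were C1QB in all cows (0.080), C1QB (0.010) and CD68 (0.016) in low gain cows and the interaction of C1QC (0.033, and 0.0079 with median centring). Without cow 4 of both classes they were C1QB in high gain cows (-0.18), CD68 in low gain cows (0.098) and the interactions of C1QA (-0.17), C1QB (-0.14) and CD53 (-0.037). In the same setting the gain difference turned for C1QB (0.072) and CD53 (0.077) at biopsy 1, CD68 (-0.085) at biopsy 2, and CD163 (0.020) and PTPRC (0.068) over both. Quantile normalization turned CD53 at biopsy 1 (0.012) and CD163 over both biopsies (0.024).

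Leaving out single cows gave ranges across 0 for C1QB in all cows (-0.18 to 0.023) and in high gain cows (-0.18 to 0.24) and for CD68 in low gain cows (-0.13 to 0.098). In the interaction these were C1QA (-0.12 to 0.33), C1QC (-0.16 to 0.099), CD53 (-0.063 to 0.19) and CD14 (-0.13 to 0.063). For gain at biopsy 1 they were C1QC (-0.042 to 0.18), CD53 (-0.089 to 0.073) and CD14 (-0.047 to 0.060). At biopsy 2 they were C1QB (-0.23 to 0.023), CD53 (-0.046 to 0.18), CD68 (-0.093 to 0.13) and CD14 (-0.080 to 0.061). Over both biopsies they were CD53 (-0.022 to 0.083), CD163 (-0.035 to 0.050), CD14 (-0.044 to 0.045) and PTPRC (-0.15 to 0.16).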
